A study of Mus musculus with 10 samples.

Results

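The genes described here are 10 targets of the hypoxia-inducible factors (HIF): Ndufa4l2, Bnip3, Egln3, Egln1, Ddit4, Vegfa, Ankrd37, Pdk1, Higd1a and Kdm3a. They were chosen by symbol, as a list of known HIF targets, and each symbol matched 1 of the 22713 Ensembl gene IDs measured in mouse embryonic stem (ES) cells. Ndufa4l2, Bnip3, Egln3 and Ddit4 brought the list in because they were among the genes with the largest falls after depletion of Pontin or knockdown of linc1253, so the values of the members in those comparisons are given as a description and no test is attached to them.

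HIF is a pair of proteins, an oxygen-sensitive alpha subunit (Hif1a, Epas1 or Hif3a) and a stable partner (Arnt). In well-oxygenated cells prolyl hydroxylases of the Egln family mark the alpha subunit, the Vhl protein then binds it, and it is degraded. When oxygen is short the subunit persists and the pair binds a short DNA core, ACGTG or GCGTG, near its targets. Those targets shift the cell from respiration to glycolysis, remove mitochondria, restrain growth, call in blood vessels, and include the hydroxylases themselves, which close a feedback loop. ES cells are known for a highly glycolytic metabolism even in normal oxygen.

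Messenger RNA was sequenced in 8 libraries of 2 lines. Pontinf/f; CreER ES cells carry floxed alleles of Pontin (gene symbol Ruvbl1), an ATPase of chromatin-modifying complexes, and a Cre that 4-hydroxytamoxifen (OHT) activates; 1 library each was made from untreated cells (WT) and at 3 days (OHT 3D) and 4 days (OHT 4D) of OHT. ZHBTc4 ES cells, in which tetracycline (Tc) shuts off Oct4, gave 1 library treated with Tc for 2 days (Tc 2D) and, 4 days after infection with pLKO lentivirus, 2 libraries with a control shRNA (shRNA control) and 2 with an shRNA against the long noncoding RNA linc1253 (shRNA linc1253). Untreated ZHBTc4 cells also gave 1 Pontin and 1 GFP chromatin immunoprecipitation (ChIP) library. No OHT-treated library without the floxed alleles was used here, so Pontin loss cannot be told apart from the drug or from Cre activity. The study's comparison for Tc 2D is with WT, which is a different line, so Oct4 loss and line cannot be told apart there. The methods give 1 hairpin sequence against linc1253, so linc1253 loss cannot be told apart from other effects of that shRNA. The methods state that ES cells were grown either on embryonic fibroblast feeders or without them. The labels do not say whether the shRNA replicates were separate infections, so their spread may be technical.

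The values are CPM, read counts scaled by the TMM method, which uses library size and RNA composition. The WT, OHT and Tc libraries were normalized apart from the shRNA libraries. CPM summed to 798811 in WT, 638591 at Tc 2D and 978095 to 1015095 in the shRNA libraries. Sums are therefore not on 1 scale across these sets. Reads on genes ranged from 17187595 to 37951742 per library. As a check of the labels, Ruvbl1 was at 198 CPM in WT, 33.3 and 50.9 after 3 and 4 days of OHT, and 85.0 after Tc, and Pou5f1, which encodes Oct4, was below WT at Tc 2D with a log2-fold-change of -3.78. The targeted RNA was not among the genes analysed. The summed level of 13 pluripotency markers was 4436 CPM in WT, 4248 and 4504 on the OHT days, 3D then 4D, and 694 after Tc, and between 6760.0 and 7482 CPM in the 4 shRNA libraries. The summed level of 16 fibroblast markers was 38.4 CPM in WT, 286 and 337 on days 3 and 4 of OHT, 62.4 after Tc, 105 and 90.3 in the controls, and 106 and 133 in the linc1253 libraries. At Tc 2D that sum was carried by Pdgfrb (25.1 CPM against 0.715 in WT) and Col5a1 (17.1 against 7.29), and the list's median log2-fold-change was -0.17. All 14 fibroblast markers that passed the filter on low values were above WT on both OHT days by a log2-fold-change over 0.58. Beside them were 6.01% of all genes on day 3 and 6.48% on day 4. Among them Col3a1, Postn, Prrx1 and Twist2 exceeded 1 CPM on the OHT days but not in WT or at Tc 2D. Their direction therefore follows from the filter. Col6a1 and Pdgfrb, both at 0.715 CPM in WT, also passed only through depleted libraries, Tc 2D among them. Lum was at 0 in WT and at OHT 3D, and Dcn, Lum, Postn and Acta2 were at 0 at Tc 2D.

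The promoters of Ndufa4l2, Bnip3, Egln3 and Ddit4, the genes that brought the list in, are shown with that of Kdm3a, a member that stayed near its control level in the OHT and linc1253 comparisons. Each is the 250 bases before the start site, 5′ to 3′ on the gene's strand, read from the NCBIM37 genome, and capitals mark ACGTG or GCGTG on either strand.
Ndufa4l2 (chr10:126951745-126951994, plus strand): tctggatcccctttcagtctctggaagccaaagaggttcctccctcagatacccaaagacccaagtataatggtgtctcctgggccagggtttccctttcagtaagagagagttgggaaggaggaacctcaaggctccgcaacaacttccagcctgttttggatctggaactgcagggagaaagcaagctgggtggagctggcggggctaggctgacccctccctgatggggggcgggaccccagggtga
Bnip3 (chr7:146101203-146101452, minus strand): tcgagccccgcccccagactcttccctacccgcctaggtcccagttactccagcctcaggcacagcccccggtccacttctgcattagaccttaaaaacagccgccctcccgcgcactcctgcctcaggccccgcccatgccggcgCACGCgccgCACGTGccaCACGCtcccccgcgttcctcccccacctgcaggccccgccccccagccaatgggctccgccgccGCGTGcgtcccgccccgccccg
Egln3 (chr12:55304848-55305097, minus strand): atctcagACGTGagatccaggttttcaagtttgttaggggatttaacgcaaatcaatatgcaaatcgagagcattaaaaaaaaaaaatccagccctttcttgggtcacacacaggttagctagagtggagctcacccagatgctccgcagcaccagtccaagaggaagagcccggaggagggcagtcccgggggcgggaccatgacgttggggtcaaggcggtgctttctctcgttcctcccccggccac
Ddit4 (chr10:59414519-59414768, minus strand): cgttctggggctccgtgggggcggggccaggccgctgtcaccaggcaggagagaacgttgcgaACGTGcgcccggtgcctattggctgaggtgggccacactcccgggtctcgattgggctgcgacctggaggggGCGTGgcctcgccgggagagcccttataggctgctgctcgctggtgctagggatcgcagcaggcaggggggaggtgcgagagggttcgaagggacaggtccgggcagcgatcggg
Kdm3a (chr6:71582900-71583149, minus strand): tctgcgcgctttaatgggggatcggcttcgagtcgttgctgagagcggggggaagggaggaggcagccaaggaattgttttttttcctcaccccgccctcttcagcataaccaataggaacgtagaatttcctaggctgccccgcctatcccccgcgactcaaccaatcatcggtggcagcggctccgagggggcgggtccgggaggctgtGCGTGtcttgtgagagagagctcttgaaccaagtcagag
Bnip3 had 5 matches, at 104, 95, 94, 86 and 22 bases before the start site, of which those at 95 and 94 overlap as the palindrome CACGTG read on each strand. Egln3 had 1 ACGTG at 243 bases, Ddit4 an ACGTG at 187 and a GCGTG at 115, Kdm3a a GCGTG at 39, and Ndufa4l2 none in this window. Among the members not shown, Ankrd37 had 3 matches, Egln1 2, Pdk1 and Higd1a 1 each and Vegfa none. At least 1 match was therefore present in 8 of the 10 members and in 42.5% of the 22380 protein-coding promoters of the same length, and 2 or more in 4 members and 19.5% of the promoters. ACGTG was in 17.5% of all promoters, GCGTG in 32.3% and CACGTG in 6.51%. The members' promoters held 53.2% to 86% G and C, against a median of 54.0% over all promoters. Ndufa4l2 and Kdm3a, at opposite ends of the members' changes at OHT 3D, had 0 and 1 match.

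Level per exon length was compared first, as CPM per kb. In WT it was 115 for Ddit4, 62.1 for Bnip3, 36.0 for Pdk1, 25.2 for Kdm3a, 21.2 for Egln3, 18.2 for Ndufa4l2, 17.8 for Higd1a, 12.9 for Vegfa, 9.56 for Egln1 and 2.68 for Ankrd37, from 1 library. In the 2 shRNA control libraries the mean was 66.6 CPM per kb for Ddit4, 38.2 for Bnip3, 34.8 for Kdm3a, 25.3 for Higd1a, 24.2 for Pdk1, 10.8 for Ndufa4l2, 9.40 for Vegfa, 8.38 for Egln3, 7.50 for Egln1 and 3.01 for Ankrd37. Higd1a and Pdk1 overlapped in this order between the control libraries, as did Ndufa4l2 and Vegfa, and the other neighbours did not. Ddit4 and Bnip3 were thus the most abundant members in both lines and Ankrd37 the least.

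**Figure D1:**
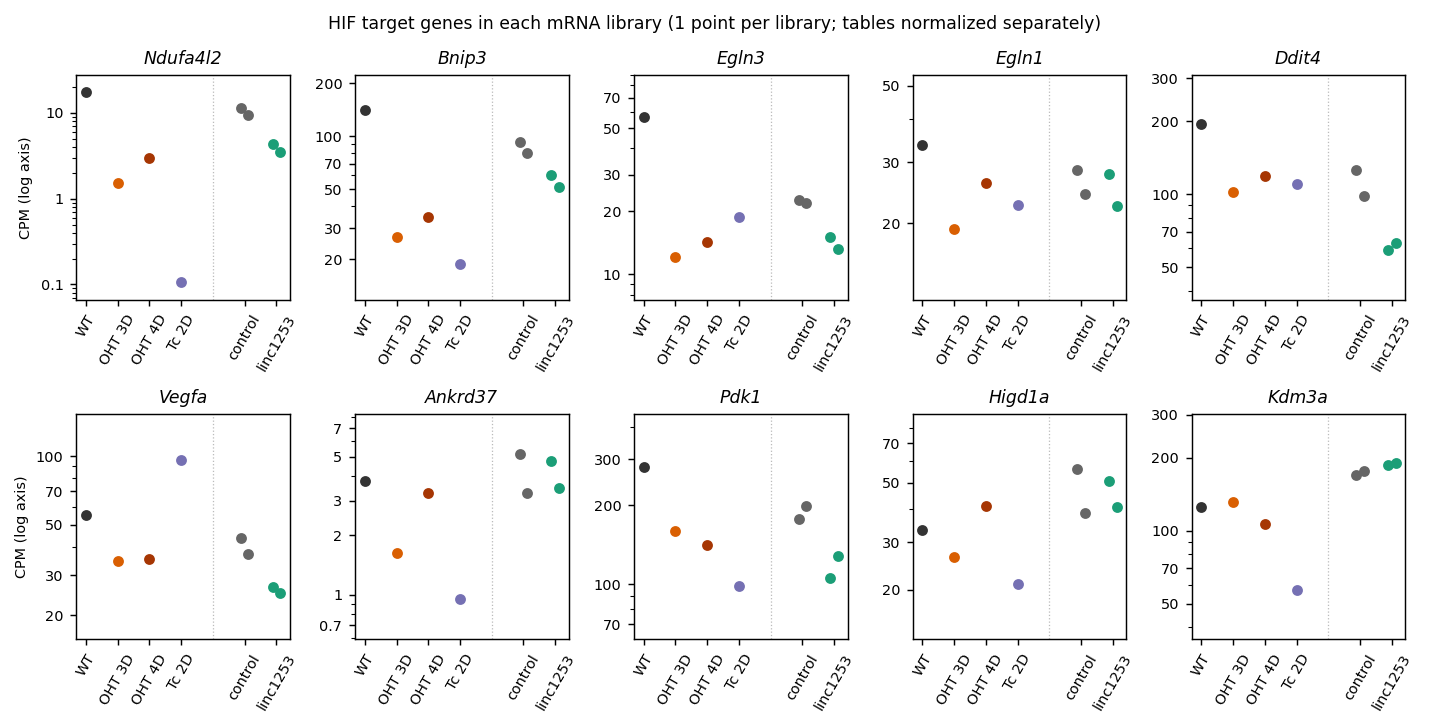
CPM (vertical log axis) of the 10 members in each of the 8 mRNA libraries, 1 point per library. The dotted line divides the 2 tables, which were normalized separately; Ndufa4l2 went from 17.5 CPM in WT to 1.54 at OHT 3D and from 11.4 and 9.33 CPM in the controls to 4.36 and 3.46 in the linc1253 libraries, while Kdm3a was at 125 and 131 CPM in WT and at OHT 3D.

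Of the oxygen sensors, Egln3 (ENSMUSG00000035105, chr12:55279968-55304847, minus strand), a prolyl hydroxylase that HIF itself induces, was at 56.4 CPM in WT, 12.1 and 14.2 after 3 and 4 days of OHT, and 18.8 after Tc. It was at 22.7 and 21.9 CPM in the shRNA controls and at 15.1 and 13.3 in the linc1253 libraries. WT stood well above every other library, and both linc1253 libraries lay below both controls. On the scale of log2(CPM + 1) the differences from WT were -2.13 on day 3 (95% counting interval -2.31 to -1.96) and -1.91 on day 4 of OHT, and the difference between linc1253 and control libraries was -0.62 (SE 0.12). Egln1 (ENSMUSG00000031987, chr8:127432496-127473154, minus strand) encodes the main hydroxylase of HIF in most cells. It was at 33.6 CPM in WT, 19.2 and 26.2 on the OHT days, 3D then 4D, 22.6 after Tc, 28.4 and 24.3 in the controls and 27.8 and 22.5 in the linc1253 libraries. WT was the highest library, OHT 4D was closer to it than OHT 3D, and the shRNA groups overlapped. Its log2-fold-changes were -0.78 on day 3, -0.35 on day 4 and -0.07 with the linc1253 shRNA.

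Among the members that act on mitochondria, Ndufa4l2 (ENSMUSG00000040280, chr10:126951995-126954208, plus strand), a HIF target that restrains respiratory complex I, had the largest fall of all genes tested, on the scale of log2(CPM + 1), at OHT 3D, at OHT 4D and in the linc1253 comparison. It was at 17.5 CPM in WT, 1.54 and 2.98 on days 3 and 4 of OHT, and 0.106 after Tc. In the shRNA libraries it was at 11.4 and 9.33 CPM in the controls and 4.36 and 3.46 with linc1253 shRNA. Each depleted library was far below WT and both knockdown libraries were below both controls. Its reads numbered 391 in WT, 34 and 68 on the OHT days and 3 after Tc, so the ratio of WT to OHT 3D was 11.4 (95% counting interval 7.99 to 16.6) and that of WT to Tc 2D was 165 (56.2 to 805). The log2-fold-changes, which understate changes of low values, were -2.86, -2.22 and -4.06 at OHT 3D, OHT 4D and Tc 2D, and -1.21 (SE 0.17) with the linc1253 shRNA. Ndufa4l2 shares 14 of its 960 exon bases with the antisense gene Shmt2.

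Bnip3 (ENSMUSG00000078566, chr7:146082519-146101202, minus strand), a receptor of the outer mitochondrial membrane that marks mitochondria for autophagy, was at 141 CPM in WT, 26.8 and 34.8 after 3 and 4 days of OHT, and 18.7 after Tc. The shRNA controls held 92.8 and 80.5 CPM and the linc1253 libraries 60.3 and 51.4. The order of the libraries was that of Ndufa4l2, with Tc 2D lowest, OHT 3D below OHT 4D, and no overlap of the shRNA groups. Bnip3 was 5.24 times lower at OHT 3D than in WT and 4.04 times lower at OHT 4D, and 1.55 times lower in the mean of the linc1253 libraries than of the controls, log2-fold-changes of -2.35, -1.98 and -0.62 (SE 0.12).

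Pdk1 (ENSMUSG00000006494, chr2:71711281-71741915, plus strand), the kinase that shuts pyruvate out of the citric acid cycle by inhibiting pyruvate dehydrogenase, was at 280.2 CPM in WT, 159.7 and 141 on the OHT days, 3D then 4D, and 98.3 after Tc. It was at 177 and 199.6 CPM in the controls and at 106 and 128 in the linc1253 libraries. Every depleted library lay below WT, and Pdk1 was, with Kdm3a, a member whose OHT 4D value was below OHT 3D. Its changes were -0.81 and -0.98 on the OHT days, -1.50 after Tc and -0.69 (SE 0.12) with the linc1253 shRNA. Higd1a (ENSMUSG00000038412, chr9:121757678-121767118, minus strand), a small protein of the inner mitochondrial membrane, was at 33.4 CPM in WT, 26.6 and 40.8 on days 3 and 4 of OHT, and 21.0 after Tc. Its controls, 56.2 and 38.7 CPM, enclosed the linc1253 libraries, 50.8 and 40.7. Higd1a thus lay below WT on the first OHT day, above it on the next, and showed no separation of the shRNA groups, with log2-fold-changes of -0.32, 0.28 and -0.04 (SE 0.20) in the OHT 3D, OHT 4D and linc1253 comparisons.

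Ddit4 (ENSMUSG00000020108, chr10:59412423-59414518, minus strand), an inhibitor of the growth kinase mTORC1 that other stress regulators such as Atf4 and p53 also induce, was at 195 CPM in WT, 102 and 119 after 3 and 4 days of OHT, and 110.1 after Tc. It was at 126 and 98.2 CPM in the controls and 58.7 and 63.2 in the linc1253 libraries. WT was the highest library, the 3 depleted libraries were close to each other, and both linc1253 libraries were far below the lower control. Relative to WT, Ddit4 changed by -0.93 and -0.70 (log2) on the OHT days, 3D then 4D, and relative to the shRNA control by -0.86 (SE 0.14) with the linc1253 shRNA, the member next to Ndufa4l2 in that comparison.

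Vegfa (ENSMUSG00000023951, chr17:46153942-46169326, minus strand), the ligand that drives vessel growth, was at 55.3 CPM in WT, 34.5 and 35.3 on days 3 and 4 of OHT, and 95.8 after Tc. Control libraries were at 43.5 and 37.3 CPM and linc1253 libraries at 26.6 and 25.1. It was the member that stood above WT at Tc 2D, while both OHT days were below WT and both linc1253 libraries below both controls. Its log2-fold-changes came to -0.67 and -0.63 on the OHT days, 0.78 after Tc and -0.62 (SE 0.12) with the linc1253 shRNA.

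Kdm3a (ENSMUSG00000053470, chr6:71538968-71582899, minus strand), a HIF-induced histone demethylase that removes repressive methyl marks, was at 125 CPM in WT, 131 and 107 after 3 and 4 days of OHT, and 57.3 after Tc. The controls were at 169.9 and 176 CPM and the linc1253 libraries at 187 and 189. OHT 3D was next to WT, Tc 2D was far below it, and Kdm3a was the member whose linc1253 libraries both lay above both controls, as 18.8% of all genes tested did. Its log2-fold-changes were 0.07, -0.23 and -1.11 at OHT 3D, OHT 4D and Tc 2D and 0.12 (SE 0.08) with the linc1253 shRNA. Ankrd37 (ENSMUSG00000050914, chr8:47082256-47085221, minus strand), which encodes an ankyrin-repeat protein, was the least abundant member, at 3.76 CPM in WT, 1.63 and 3.29 on the OHT days, 3D then 4D, and 0.952 after Tc. It was at 5.17 and 3.27 CPM in the controls and 4.77 and 3.46 in the linc1253 libraries, which overlapped. The reads behind it were 84, 36, 75 and 27 in the first table, and the ratio of WT to OHT 3D was 2.31 (counting interval 1.54 to 3.51). Ankrd37 shares 28.9% of its exon bases with Ufsp2 and Lrp2bp on the opposite strand, and the library kit named in the labels is not stated to keep strand, so reads of these genes cannot be told apart there.

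Depletion of Pontin was compared with WT to ask which genes depend on it. All 10 members passed the filter, a CPM above 1 in at least 1 library of the table. A gene was counted as lower or higher when its log2-fold-change of CPM plus 1 passed 0.58 in size, the threshold of the study. At OHT 3D 8 members were below -0.58, where 5.88% of the 13449 genes tested were, and 0 were above 0.58, where 6.01% were. At OHT 4D 6 members were below, where 8.89% of all genes were, and 0 were above, where 6.48% were. Ndufa4l2, Bnip3, Egln3, Ddit4, Vegfa and Pdk1 were below on both days, as were 2.10% of all genes. Egln1 and Ankrd37 were below at OHT 3D only, and the values nearest the threshold were -0.67 for Vegfa inside and -0.32 for Higd1a outside at OHT 3D, and -0.63 for Vegfa inside and -0.35 for Egln1 outside at OHT 4D. Past 1 in size, 3 members were below on day 3, where 0.929% of all genes were, 3 on day 4, where 1.61% were, and 0 above on either day, where 1.90% and 2.38% were. The members' median was -0.83 at OHT 3D and -0.67 at OHT 4D, beside medians of all genes within 0.02 of 0, but these counts restate how the list was drawn up and the 2 comparisons share the WT library. In bulk RNA, fewer cells that express a gene and less RNA per cell cannot be told apart. The summed fibroblast markers were 286 and 337 CPM on these days against 38.4 CPM in WT, those of 10 trophectoderm markers 247 and 430.1 against 248, and those of primitive endoderm 327 and 369 against 243. Of 9 trophectoderm markers tested 5 were above 0.58 and 2 below -0.58 on day 3, beside 6.01% and 5.88% of all genes. On day 4, 6 were above and 1 was below, beside 6.48% and 8.89%. Of those above, Cdx2, Hand1 and Gata3 were under 1 CPM in WT and passed the filter only through depleted libraries. Krt8 made up 65.1 and 155 CPM of the trophectoderm sums and Krt18 44.2 and 110.2. Tfap2c was at 114 and 127 against 192 in WT and Eomes at 4.39 and 6.26 against 7.55. Of 9 primitive endoderm markers tested, 4 were above 0.58 and 0 below -0.58 on day 3, beside 6.01% and 5.88% of all genes. On day 4, 7 were above and 0 below, beside 6.48% and 8.89%. Among those above, Gata6 on both days and Sox17 on day 4 passed the filter only through depleted libraries. Of the endoderm sums, Col4a1 made up 95.6 and 129 CPM against 33.3, while Lamb1 was at 142 and 133 against 151. Their part in these falls was not tested.

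OHT 4D was also set directly against OHT 3D. This leaves out WT, but both libraries entered the choice of members, and genes picked for low values in 1 of them tend to lie higher in the other, so the values are a description. At OHT 4D 3 members were above their OHT 3D level by more than 0.58, where 5.47% of all genes were: Ankrd37 by 0.71, Ndufa4l2 by 0.65 and Higd1a by 0.60 on the log2 scale. None was below, where 8.84% of all genes were, and 8 of 10 members had a positive difference, with a median of 0.29 beside 0.03 for all genes. With a pseudocount of 3 in place of 1, which damps low values, none of the 3 passed. Ruvbl1 was at 33.3 CPM on the first of these days and 50.9 on the second. With 1 library a day no test of this difference exists.

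**Figure D2:**
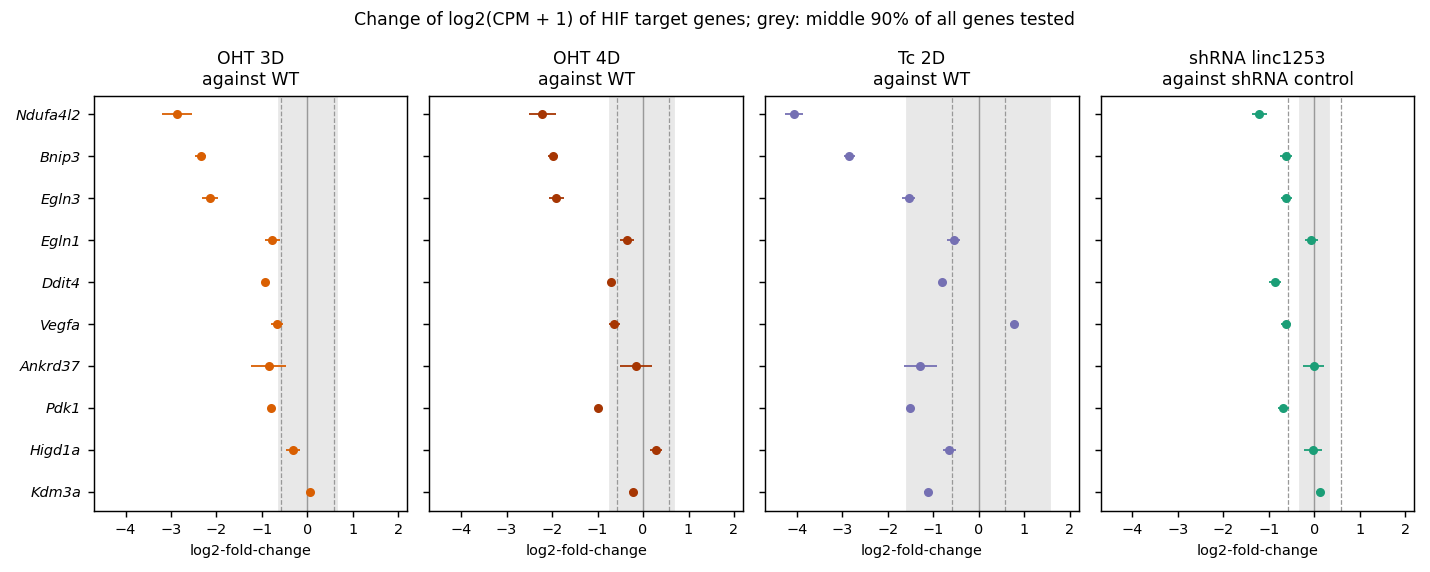
Log2-fold-change of CPM plus 1 (horizontal axes) of each member in 4 comparisons; lines are 95% counting intervals for single libraries and 1 SE for the linc1253 comparison, dashed lines mark 0.58 in size and the grey band holds the middle 90% of all genes tested. Ndufa4l2, Bnip3 and Egln3 lay far left of the band at OHT 3D (-2.86, -2.35 and -2.13), the band was much wider at Tc 2D (-1.58 to 1.58), and Vegfa was right of 0 there.

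Depletion of Oct4 was a comparison that the choice of members did not use, although it shares the WT library with the OHT comparisons. Against WT, 8 members were below -0.58 at Tc 2D, where 25.8% of all genes were, and Vegfa was the 1 member above 0.58, where 23.9% were. The members' median was -1.20 beside -0.06 for all genes. Scaled by all reads on genes, 6 members were below, without Ddit4 (-0.50) and Higd1a (-0.34), and the shares of all genes were 16% below and 35.7% above. Ndufa4l2 (-4.06), Bnip3 (-2.84), Egln3 (-1.54), Pdk1 (-1.50), Ankrd37 (-1.28) and Kdm3a (-1.11) changed more here than Ddit4 (-0.82), Higd1a (-0.64) and Egln1 (-0.55). Since WT is another line, the Tc 2D library was also set against the mean of the shRNA control libraries of ZHBTc4 cells, which come from the other table and carry a lentivirus. The study ran these control libraries on a different sequencer model from the Tc 2D library. Oct4 loss therefore cannot be told apart from sequencer or infection there. These controls also entered the choice of members, through the falls with the linc1253 shRNA, so this is not an independent comparison. There 6 members were below -0.58, where 28.5% of all genes were, and 1 was above, where 18.5% were. Ndufa4l2 was at -3.36, Bnip3 at -2.15, Kdm3a at -1.58, Ankrd37 at -1.39, Higd1a at -1.12, Pdk1 at -0.93 and Vegfa at 1.23. Egln3 and Ddit4, at -0.24 and -0.02, no longer passed the threshold within the ZHBTc4 line, and on a single median-ratio scale over both tables they were at -0.06 and 0.17. At Tc 2D Egln3 was at 18.8 CPM, and the separately normalized control libraries of the same line were at 22.7 and 21.9. The part of line in the difference of Egln3 from WT was not tested. Summed trophectoderm markers were 543 CPM at Tc 2D against 248 in WT. Of 9 tested 8 were above 0.58, beside 23.9% of all genes, and Tfap2c was below WT, at 85.5 CPM against 192. Among those above, Cdx2, Hand1 and Gata3 passed the filter only through depleted libraries. Those of primitive endoderm were 554 CPM against 243, with 6 of 9 tested above 0.58, beside 23.9% of all genes. Gata6, among those above, and Sox17, among those tested, passed the filter only through depleted libraries. The part of these markers was not tested.

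Knockdown of linc1253 was compared with the control shRNA, 2 libraries against 2, to ask which genes depend on this RNA. Of the members, 6 were below -0.58, where 0.567% of the 13407 genes tested were, and 0 were above, where 0.820% were. They were Ndufa4l2, Ddit4, Pdk1, Bnip3, Vegfa and Egln3, and each had both linc1253 libraries below both controls, as 19.2% of all genes did. The other 4 members were between -0.07 and 0.12, and the median was -0.62 for the members and -0.0011 for all genes. The same 6 genes were below on both OHT days in the other line. Being below on both OHT days and having both linc1253 libraries below both controls applied to 142 of the 12872 genes tested in both tables, or 1.10%. That count used the comparisons from which the list was drawn. Bnip3, Vegfa, Pdk1 and Egln3 lay close to the threshold, and leaving out single libraries brought each of them short of it. Without control replicate 1 Bnip3 was at -0.52 and Vegfa at -0.51, without linc1253 replicate 2 Bnip3 was at -0.51 and Egln3 at -0.53, and without linc1253 replicate 1 Pdk1 was at -0.55. Summed fibroblast markers with the knockdown were at 106 and 133 CPM against 105 and 90.3, sums made up mainly by Col5a1, Thy1 and Fbn1. Linc1253 replicate 2 was highest in others of the list. Acta2 was at 17.7 CPM there against 0.180 in replicate 1 and 0.277 and 3.31 in the controls. Col1a2 was at 8.77 against 0.876, 0.738 and 2.24. In both genes control replicate 2 was also above control replicate 1. Summed trophectoderm markers were at 89.2 and 87.3 CPM against 121 and 116, groups that did not overlap, of which Tfap2c made up 30.9 and 30.7 against 52.7 and 49.7. Those of primitive endoderm were at 262 and 361 against 275 and 313, and their part was not tested. Ruvbl1 was at 188 and 148 CPM against 166 and 186 in the controls.

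**Figure D3:**
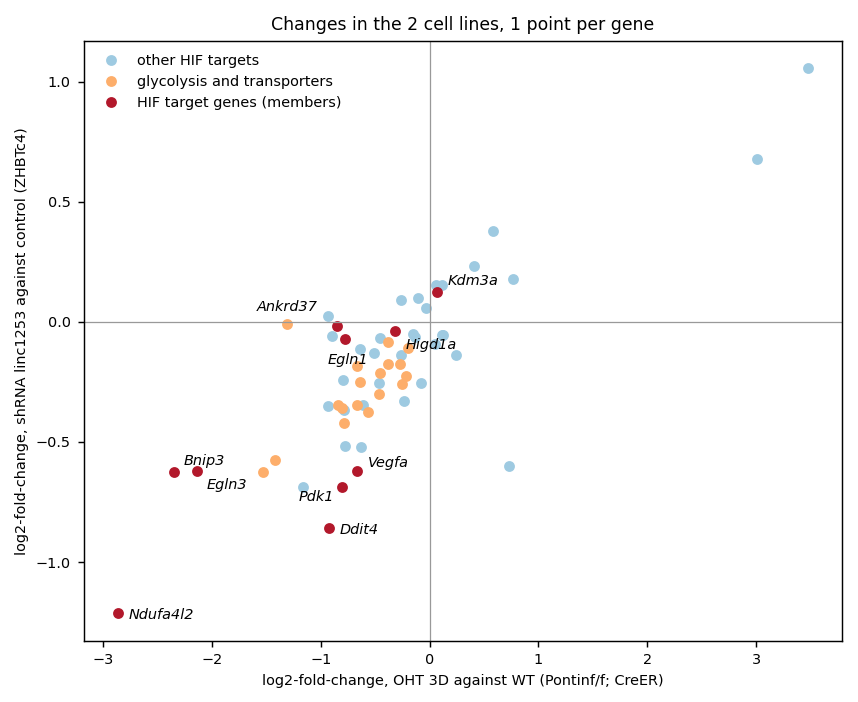
Log2-fold-change with the linc1253 shRNA in ZHBTc4 cells (vertical axis) against that at OHT 3D in Pontinf/f; CreER cells (horizontal axis), 1 point per gene for the members, other HIF targets, and genes of glycolysis; the 2 comparisons share no library. Ndufa4l2 is at the lower left (-2.86 and -1.21), Kdm3a near the origin (0.07 and 0.12), and Lox is at the upper right (3.48 and 1.06).

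To set the members beside the rest of their pathway, 37 other HIF targets were examined, of which 35 passed the filter of the first table. At OHT 3D 10 of the 35 were below -0.58 and 7 above 0.58, beside 5.88% and 6.01% of all genes. Of those above, Adm, Edn1 and Lox exceeded 1 CPM on the OHT days but not in WT or at Tc 2D. Ppp1r3c, also above, was at 0.581 CPM in WT and exceeded 1 CPM in each depleted library. The filter thus kept these genes through the libraries where they were high. With a pseudocount of 3, 9 were below and 3 above, beside 3.7% and 3.31%. With a filter of 5 CPM, 10 were below and 4 above, beside 5.87% and 4.98%. At OHT 4D 5 were below and 6 above, beside 8.89% and 6.48%, with Adm, Edn1 and Lox again among those above. With a pseudocount of 0.5, 9 were below and 7 above, beside 10.1% and 8.07%. The list median was -0.14 and -0.18 on the 2 days. Stc2, a secreted glycoprotein, was at 38.4 CPM in WT, 16.6 and 16.2 on days 3 and 4 of OHT, and 18.7 after Tc, and at 15.2 and 14.2 CPM in the controls against 9.43 and 8.11 in the linc1253 libraries. Its log2-fold-change of -0.69 with the linc1253 shRNA was the lowest of the list. The matrix enzyme Lox went the other way, at 20.6 CPM at OHT 3D against 0.939 in WT. Lox is also well known from fibroblasts, and the summed fibroblast markers were higher in the same library, at 286 CPM against 38.4; their part was not tested. Lox was also the member of the list with the largest rise in the linc1253 comparison, 1.06, but this came from 1 library at 7.98 CPM, with the other at 0.155 and the controls at 0.046 and 1.29.

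In limma's test of the linc1253 comparison 0 of the 13407 genes passed an adjusted p of 0.05, 503 were lower and 496 higher at an unadjusted p under 0.05, and edgeR's quasi-likelihood test also called 0, while its exact test called 42 lower and 38 higher and DESeq2 27 and 23. Of the 33 other HIF targets tested, 8 were lower and 1 higher at an unadjusted p under 0.05, where 3.75% and 3.70% of all genes were. Leaving out control replicate 1 gave 4 lower, and leaving out either linc1253 replicate gave 3. At Tc 2D 15 of 35 were below -0.58 and 9 above, beside 25.8% and 23.9% of all genes, and the list median was -0.20. Of those above, Car9 passed the filter only through Tc 2D, at 3.52 CPM against 0.447 in WT, and Ppp1r3c only through depleted libraries. Against the ZHBTc4 controls 12 of the 35 were below and 5 above, Car9 among these, beside 28.5% and 18.5% of all genes. On one median-ratio scale 8 were below and 8 above, beside 21.9% and 24.4%. The lowest against WT, among those that averaged 5 CPM or more, were the matrix enzyme Loxl2 (-3.84), Bnip3l (-1.88), a mitophagy receptor related to Bnip3, and the demethylase Kdm4c (-1.59).

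Genes of glycolysis and its transporters, the best known arm of the HIF response, were measured for all 18 on the list. At OHT 3D 9 were below -0.58, beside 5.88% of all genes. All 18 were below 0, with a median of -0.60 beside -0.02 for all genes. At OHT 4D 3 were below -0.58, beside 8.89%, and 14 under 0, with a median of -0.31. Pfkp, a phosphofructokinase, was at 284 CPM in WT, 97.7 and 127 after 3 and 4 days of OHT, and 80.6 after Tc, and at 313 and 279.7 CPM in the controls against 204 and 179.6 in the linc1253 libraries. Aldoc, an aldolase, was at 24.8 CPM in WT, 8.64 and 9.29 on the OHT days, 3D then 4D, and 3.98 after Tc, and at 13.6 and 14.4 against 9.59 and 8.55 in the shRNA libraries. Pfkp and Aldoc were low in each depleted library. Each had both linc1253 libraries below both controls, as 19.2% of all genes did. With the linc1253 shRNA all 18 had a negative log2-fold-change, with a median of -0.25 beside -0.0011 for all genes. Of them 1, Pfkp at -0.62, was below -0.58, beside 0.567% of all genes. At an unadjusted limma p under 0.05, 9 were lower, beside 3.75%. At Tc 2D 14 of the 18 were below -0.58 and the hexokinase Hk1 was above 0.58, beside 25.8% and 23.9% of all genes, with a median of -1.78, and the lactate transporter Slc16a3 was the lowest, with 9.94 CPM at Tc 2D against 86.5 in WT. Against the controls of its own line 14 were below and 1 above, beside 28.5% and 18.5%, with a median of -2.30.

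**Figure D4:**
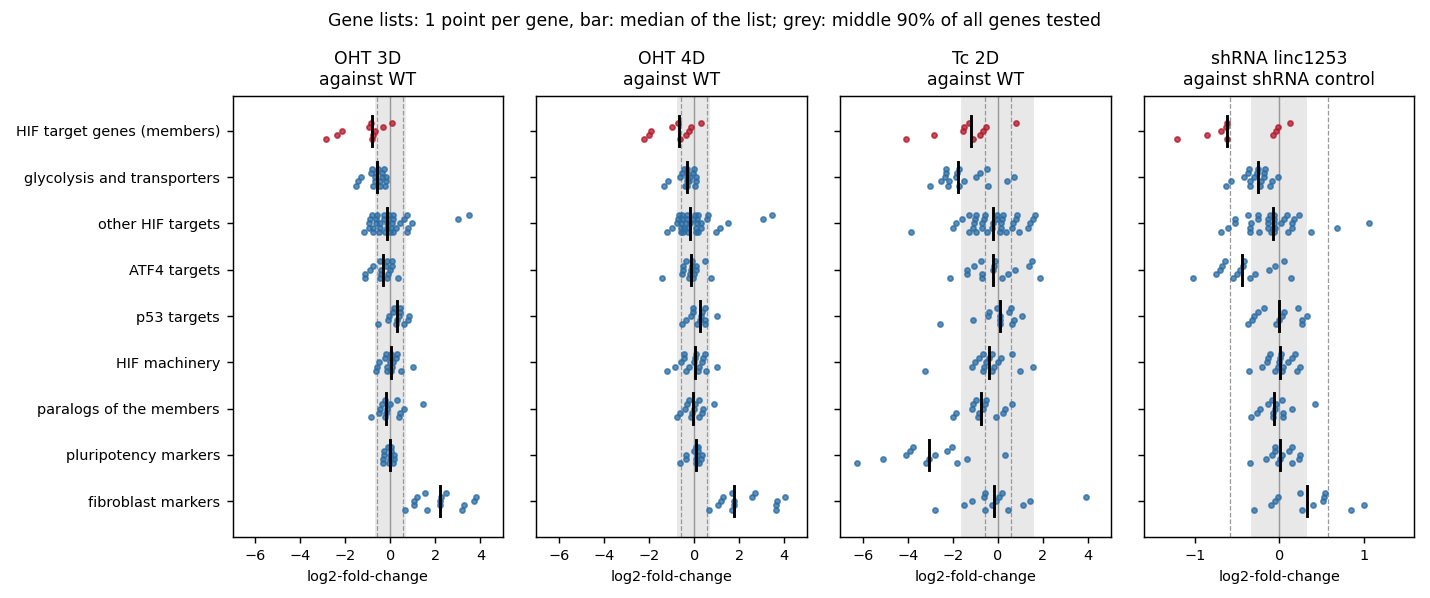
Log2-fold-change of CPM plus 1 (horizontal axes; the linc1253 axis is narrower) of each tested gene of 9 lists in 4 comparisons, 1 point per gene with the list's median as a bar and the middle 90% of all genes in grey. The members' medians were -0.83, -0.67, -1.20 and -0.62, those of glycolysis -0.60, -0.31, -1.78 and -0.25, and the fibroblast markers were at 2.19 and 1.77 on the OHT days. Some fibroblast markers passed the filter only through the OHT libraries.

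Targets of Atf4, the amino acid stress regulator that also induces Ddit4, were measured for 16 genes. In the linc1253 comparison 5 were below -0.58, beside 0.567% of all genes, and 11 were lower at an unadjusted p under 0.05 with 0 higher, beside 3.75% and 3.70%, with a median of -0.44. Chac1, a glutathione-degrading enzyme, was at 22.9 and 18.3 CPM in the controls and 11.7 and 7.85 in the linc1253 libraries, a log2-fold-change of -1.02, and Ddit3 was at -0.70 and Nupr1 at -0.75. At OHT 3D 4 of the 16 were below -0.58, beside 5.88% of all genes, among them Phgdh (-1.13), Asns (-0.92) and Psat1 (-0.76) of amino acid synthesis, and at OHT 4D 1 was below and 1 above, beside 8.89% and 6.48%. At Tc 2D 7 were below and 4 above, beside 25.8% and 23.9%, and against the controls of the ZHBTc4 line 5 and 4, beside 28.5% and 18.5%. Slc7a11, among those above WT, passed the filter only through Tc 2D, at 4.09 CPM against 0.939 in WT. Against WT the ends of the list were Cth at -2.15, Ddit3 at 1.89 and Trib3 at 1.52. Of the targets of p53, another inducer of Ddit4, 13 were tested. At OHT 3D 0 were below -0.58 and 3 above 0.58, beside 5.88% and 6.01% of all genes. Those above were Plk2 (0.82), Mdm2 (0.79) and Phlda3 (0.62). At OHT 4D 0 were below and 1 above, beside 8.89% and 6.48%. In the linc1253 comparison 0 passed in either direction, where 0.567% of all genes were below and 0.820% above. At Tc 2D 2 were below and 3 above WT, beside 25.8% and 23.9%. Against the controls of the ZHBTc4 line 0 were below and 7 above, beside 28.5% and 18.5%, with a median of 0.76.

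The machinery that controls HIF was measured for 17 genes. Hif1a stood at 139 CPM in WT, 140.2 and 107 on days 3 and 4 of OHT, and 90.2 after Tc, which are log2-fold-changes of 0.02, -0.37 and -0.61, and its change was 0.10 (SE 0.15) with the linc1253 shRNA. Epas1, the other main alpha subunit, was above WT at OHT 3D (0.99) and OHT 4D (0.46), and far below it at Tc 2D (-3.26), where it was also below the controls of its own line (-2.89). Hif3a, a subunit that HIF can induce, was at 12.1 CPM in WT, 7.65 and 4.6 after 3 and 4 days of OHT, and 10.4 after Tc, and at 11.3 and 11.7 CPM in the controls against 9.15 and 8.46 with the linc1253 shRNA. The mRNA of the alpha subunits therefore did not share a direction at OHT 3D. Arnt was at -0.25, -0.45, -0.27 and -0.20 in the OHT 3D, OHT 4D, Tc 2D and linc1253 comparisons, and Vhl stayed within 0.11 of its controls in all 4. Egln2 was at -0.16, 0.20, -0.55 and 0.05, and Hif1an, a hydroxylase that blocks HIF activity, at 0.23, -0.24, -0.65 and 0.04. Of the 17 genes 2 were below -0.58 and 1 above 0.58 on each OHT day. Beside them were 5.88% and 6.01% of all genes on day 3 and 8.89% and 6.48% on day 4. With the linc1253 shRNA 0 passed in either direction, where 0.567% of all genes were below and 0.820% above. At Tc 2D 7 were below and 3 above, beside 25.8% and 23.9% of all genes, with a median of -0.41, and against the controls of the ZHBTc4 line 6 were below and 1 above, beside 28.5% and 18.5%. These are mRNA levels, and HIF is controlled mainly through the stability of its protein, which was not measured.

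Related genes of each member's family were set beside it. Ndufa4, the paralog of Ndufa4l2, was at 103 CPM both in WT and at OHT 3D, 134 a day later and 57.0 after Tc, and at 169 and 164 CPM in the controls against 161 and 163 with the linc1253 shRNA. Bnip3l was at 145 CPM in WT and at 105 and 115 on the OHT days, log2-fold-changes of -0.46 and -0.33, beside -2.35 and -1.98 for Bnip3. Pdk2, Pdk3 and Pdk4 were at -0.24, -0.22 and -0.51 at OHT 3D, beside -0.81 for Pdk1. Vegfb was at -0.84 and Vegfc at 1.43 at OHT 3D, Ddit4l at 0.62, Higd2a at -0.38, Kdm3b at -0.21 and Jmjd1c at 0.42. Of 14 paralogs tested 1 was below -0.58 at OHT 3D, beside 5.88% of all genes, and 2 at OHT 4D, beside 8.89%. With the linc1253 shRNA 0 were below, beside 0.567%. At Tc 2D 9 of the 14 were below and 1 above, beside 25.8% and 23.9% of all genes, with a median of -0.76, among them Higd2a (-1.98), Bnip3l (-1.88) and Ndufa4 (-0.85). Against the controls of the ZHBTc4 line 6 were below and 1 above, beside 28.5% and 18.5% of all genes, with a median of -0.38, and Higd2a was at -1.52, Bnip3l at -0.76 and Ndufa4 at -1.53. On one median-ratio scale 3 were below and 1 above, beside 21.9% and 24.4% of all genes. The difference between a member and its paralog was not tested, as WT and each OHT day have 1 library.

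Pontin binding was measured in untreated ZHBTc4 cells and did not enter the choice of members. Reads from 2.5 kb before to 500 b after each start site were divided by the reads of the library, 40729076 for Pontin and 17185883 for GFP. Log2 ratios of Pontin over GFP were 0.79 for Bnip3, 0.68 for Ndufa4l2, 0.63 for Egln3, 0.59 for Ankrd37, 0.55 for Ddit4, 0.52 for Higd1a, 0.25 for Egln1, 0.08 for Kdm3a, -0.10 for Pdk1 and -0.40 for Vegfa. None passed 1, where 14.5% of the 21186 promoters did, and each member's 95% counting interval included 0, for example -0.23 to 1.95 for Bnip3. The 82 Pontin and 20 GFP reads at Bnip3 show how few reads a ratio rests on. The members' median of 0.54 lay beside 0.34 for all promoters and 0.47 for those of genes above 5 CPM in the control libraries. With a window reaching 1 kb to each side of the start, 2 members passed 1, where 26.4% of promoters did. The difference between the members' promoters and other promoters was not tested.

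**Figure D5:**
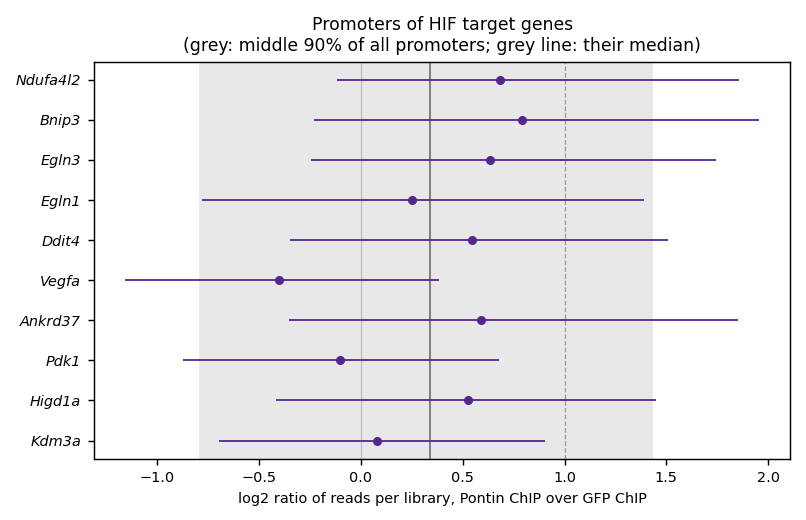
Log2 ratio of reads per library, Pontin over GFP ChIP (horizontal axis), at the promoter of each member, with 95% counting intervals; the grey band holds the middle 90% of all promoters, the solid line their median of 0.34 and the dashed line the threshold of 1. All 10 intervals include 0, and the highest ratio is 0.79 for Bnip3.

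Genes whose pattern was most like that of the 4 members that brought the list in were sought among the 9956 genes that averaged 5 CPM or more in each table, by the root mean square difference of log2-fold-changes over 5 values (OHT 3D, OHT 4D, Tc 2D and each linc1253 library). Nearest to Ndufa4l2 were Bnip3 (0.71), Ephx2 (1.14) and Aldoc (1.15), and nearest to Bnip3 were Aldoc (0.55), Egln3 (0.59) and Ndrg2 (0.69). Nearest to Egln3 were Cds1 (0.37), Ruvbl1 (0.42), the depleted gene itself, and Pfkp (0.45). Nearest to Ddit4 were Tjp3 (0.14), Tcfap2c, the older symbol of Tfap2c (0.21), and Pck2 (0.25). The difference is in absolute log2 units and uses values that entered the choice of members, so it grows with the size of a member's own changes and is not compared between members.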

How the data were processed

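The authors trimmed adapters and low-quality ends, aligned mRNA reads to NCBIM37 with TopHat (up to 2 mismatches and 10 places per read) and ChIP reads with Bowtie2, used HTSeq for gene counts, and deposited these as CPM scaled by TMM in edgeR, in 2 tables of 4 libraries normalized separately. Each line of the deposited ChIP files is a read, with a score of its mapping quality that was not used further. In all 8 libraries 100% of the CPM values were whole multiples of 1 read within 0.01 read, so read numbers were recovered. The strand setting of the counting is not given in the sources used here.

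A gene was kept where any library of its table exceeded 1 CPM, 1 was added and log2 taken. Comparisons of single libraries are descriptions with 95% counting intervals, and the threshold was 0.58 in size. For linc1253, limma 3.58.1 with trend was fitted over all 13407 genes with Benjamini-Hochberg adjustment (R 4.3.3). The edgeR 4.0.16 quasi-likelihood and exact tests and DESeq2 1.42.0 were run on recovered reads. Intervals, and the limit of 3 reads that a count of 0 allows, cover counting error alone: without molecular identifiers, reads of 1 molecule cannot be recognised. Mates of a ChIP fragment were treated as 1 observation in the intervals. Other steps ran in Python 3.11.15 (scipy 1.17.1, pandas 2.3.3, numpy 2.4.6, matplotlib 3.10.9).

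Symbols were matched for 22337 of 22713 IDs through the NCBIM37 annotation, from which positions, exon lengths and promoters were read. The members and gene lists were chosen with earlier results of these data known. The text names all members, the HIF subunits and hydroxylases, paralogs, and up to 3 genes per list and comparison with the largest change among those with a mean CPM of at least 5. Some genes so selected are covered only by their list's counts, and Hk1 was named after its value was seen, as the single gene behind a count. Higd1c was not matched and is in no count; Tfap2c and Tfcp2l1 were matched under the older symbols Tcfap2c and Tcfcp2l1. Jmjd1c and Dab2 matched more than 1 ID and the more abundant was used. On simulated data with 200 genes changed 4-fold, limma recovered 100% and called 0.176% of the unchanged among 13272 genes for the linc1253 comparison; edgeR and DESeq2 also recovered 100%, calling 0.189% and 0.235% of the unchanged among 13407. For a depletion library against WT the threshold recovered 100% and passed 2.75% of unchanged genes among 13449. Changes as small as those with the linc1253 shRNA were not simulated. Alternatives were other pseudocounts, filters, scalings, thresholds, controls, tools, promoter windows, a replicate block, and leaving out each shRNA library.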

Additional observations from a re-analysis of the deposited data

How the results depend on the processing

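With a threshold of 1 in place of 0.58, 3 members were below at OHT 3D and 3 at OHT 4D, beside 0.929% and 1.61% of all genes, 0 were above in OHT 4D against OHT 3D, beside 0.461%, and 0 were above at Tc 2D, beside 12.8%. With a pseudocount of 3, 0 members were above in OHT 4D against OHT 3D, and Ankrd37 was at -0.55 at OHT 3D. With a ChIP window reaching 1 kb to each side of the start, 2 members passed a log2 ratio of 1. Ddit4 at Tc 2D was at 0.17 against the shRNA controls on one median-ratio scale, and at -0.50, with Higd1a at -0.34, with CPM of all reads on genes, a scaling that moved the median of all genes at Tc 2D from -0.06 to 0.25. The cause of these shifts was not tested.

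In the linc1253 comparison limma called 0 genes lower and 0 higher at an adjusted p of 0.05. The exact test of edgeR called 42 and 38, DESeq2 27 and 23, and the quasi-likelihood test 0, with 513 lower and 497 higher at an unadjusted p under 0.05. With the replicate number as a block limma called 1027 lower and 933 higher, among them 11 of the 33 other HIF targets. The correlation of the deviations of same-numbered libraries was 0.673, so these libraries deviated alike across genes. With 2 pairs and no label that says what a number marks, what they share cannot be told. Leaving out 1 library gave 0 to 3 genes lower and 0 to 16 higher: 3 and 1 without control replicate 2, and 3 and 16 without linc1253 replicate 1. There the lone library is assumed to vary like the other group.

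Of the recomputed counts that summarise a comparison, 103 stayed within 1.5 times the reported count and 16 did not. Of the members' values and other counts, 579 stayed on their side of the threshold or within that range, 29 fell short of the threshold, 47 counts and shares shifted by more, and 1 value past the threshold, Ddit4 at Tc 2D, changed sign. Values short of the threshold also changed sign: with 1 library left out of the linc1253 comparison, Ankrd37 ranged from -0.28 to 0.25, Higd1a from -0.30 to 0.23 and Egln1 from -0.22 to 0.08, and with ChIP reads scaled by the median ratio over promoters Egln1 was at -0.09 and Kdm3a at -0.26. Depth limits Ankrd37, Ndufa4l2 after depletion and all ChIP ratios most, and 1 library per condition leaves every OHT and Tc difference without replicate error.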
